A study of Mus musculus with 22 samples.

Results

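The response of the wild-type mouse hypothalamus to bacterial lipopolysaccharide (LPS) was measured 3 h after injection. LPS is the outer-membrane component of Gram-negative bacteria that triggers inflammation and fever. The contrast and the gene lists below were chosen with earlier results of these data known. Arrays entered the contrast by treatment and genotype label. It held 11 of the 22 arrays of the series, 7 labelled WT after LPS and 4 labelled WT after saline. Both groups were male C57bl6 mice of 9 to 12 weeks, the wild-type littermates of interleukin-6 deficient animals, and were housed singly. The LPS group received 120 µg/kg of Escherichia coli LPS once into the peritoneal cavity and the control group the saline vehicle. All animals were perfused through the heart with saline before the hypothalamus was removed, and 200 ng of total RNA was labelled with biotin for an Affymetrix array. Whether the arrays came from separate mice is not in the labels, so every p below measures the spread between arrays. The other 11 arrays, from littermates labelled IL-6 KO under the same treatments (7 after LPS, 4 after saline), entered only the estimate of the spread and a closing comparison.

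The hypothalamus holds the preoptic neurons that set body temperature and the neurosecretory cells that drive the adrenal stress axis. LPS in the blood is sensed by Toll-like receptor 4 (TLR4) on circulating and perivascular cells and on brain endothelium. The MYD88 arm of the receptor activates the transcription factor NF-kB and genes of chemokines, adhesion molecules and cyclooxygenase-2. The TRIF arm induces type I interferon, which acts on genes that carry an interferon-stimulated response element. Prostaglandin E2 made by the vessels reaches the preoptic neurons and starts fever, and corticosterone released by the adrenal gland acts back on the brain.

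Promoter sequence is shown for 5 of the genes described below, to let the interferon and NF-kB elements be read beside the values. The stretches are the 250 bases before the RefSeq start site, build GRCm38.p6, written 5′ to 3′ on the gene's own strand. Of the 19935 genes tested, 15561 had an entry in that promoter table. Capitals mark a match on either strand to the interferon element core GAAANNGAAA, to the STAT-binding palindrome TTCNNNGAA or to the NF-kB core GGGANTTTCC. The genes are the chemokine Cxcl10 (chr5:92348890-92349139, minus strand), the antiviral Ifit3 (chr19:34583279-34583528, plus strand), the GTPase Gbp5 (chr3:142496684-142496933, plus strand), the NF-kB inhibitor Nfkbia (chr12:55492648-55492897, minus strand) and the acute-phase gene Lcn2 (chr2:32387740-32387989, minus strand).
Cxcl10: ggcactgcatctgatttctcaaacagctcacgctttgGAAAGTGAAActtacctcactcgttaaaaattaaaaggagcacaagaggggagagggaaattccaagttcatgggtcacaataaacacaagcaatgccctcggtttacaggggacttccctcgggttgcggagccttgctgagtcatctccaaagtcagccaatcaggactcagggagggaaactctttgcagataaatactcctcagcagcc
Ifit3: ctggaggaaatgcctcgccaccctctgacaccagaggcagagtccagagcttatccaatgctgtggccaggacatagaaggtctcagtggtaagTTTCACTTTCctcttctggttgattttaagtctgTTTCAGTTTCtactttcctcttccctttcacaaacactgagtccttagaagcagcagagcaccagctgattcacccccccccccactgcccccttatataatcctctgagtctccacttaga
Gbp5: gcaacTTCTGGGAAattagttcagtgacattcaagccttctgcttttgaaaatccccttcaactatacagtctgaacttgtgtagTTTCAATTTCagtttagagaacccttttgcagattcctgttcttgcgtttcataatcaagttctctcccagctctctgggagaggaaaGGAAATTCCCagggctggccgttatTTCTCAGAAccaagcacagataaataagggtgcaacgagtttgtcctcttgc
Nfkbia: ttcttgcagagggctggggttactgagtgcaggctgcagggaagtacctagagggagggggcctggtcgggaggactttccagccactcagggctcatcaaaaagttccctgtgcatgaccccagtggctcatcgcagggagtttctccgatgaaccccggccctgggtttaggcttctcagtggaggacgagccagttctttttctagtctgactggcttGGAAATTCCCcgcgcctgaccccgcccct
Lcn2: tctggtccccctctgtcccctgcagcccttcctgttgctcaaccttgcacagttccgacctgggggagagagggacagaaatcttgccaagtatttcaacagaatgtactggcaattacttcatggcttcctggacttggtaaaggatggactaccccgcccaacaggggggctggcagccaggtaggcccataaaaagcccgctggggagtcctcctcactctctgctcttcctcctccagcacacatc
Cxcl10 held 1 interferon core that began 213 bases before the start, and Ifit3 held 2, at 156 and 122 bases. Gbp5 held all 3 motifs, an interferon core at 165 bases, STAT palindromes at 245 and 52 bases and an NF-kB core at 77 bases. Nfkbia held an NF-kB core at 29 bases, and no match to these letters stood in the Lcn2 window. Among all 19114 promoters of this length in the table, 2.86% held the interferon core, 6.57% the STAT palindrome and 0.392% the NF-kB core. Rsad2, Ifit1, Slfn5 and AW112010 were searched too and are not shown. Rsad2 and Slfn5 held 1 interferon core each, Ifit1 held 2, and AW112010 held no match to any motif. The searched genes were not drawn at random, so their matches were not tested against the shares of all promoters. These matches describe the sequence only. Each motif was searched as a fixed string, and sites spelled with other letters stay in lower case. A stretch without capitals, as for NF-kB in Cxcl10, is therefore not shown to lack a site.

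Values are log2 differences from the median of each probe set over the 22 arrays. A gene's value therefore says where an array stands relative to the other arrays and not how abundant the transcript is. Levels of tissue markers could not be read from such values. A gene was called when limma's two-sided test of LPS minus saline gave a Benjamini-Hochberg adjusted p under 0.05 over all genes. LPS was followed by higher values of 284 genes, 1.42% of those tested, and by lower values of 75 genes, 0.376%. The median difference over all genes was -0.011 (log2).

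Increases were larger than decreases. The 284 higher genes had a median difference of 0.47 (1.39-fold), with 57 of them over 2-fold and 11 over 4-fold. The 75 lower genes had a median decrease of 0.33 in size (1.26-fold), and 2 exceeded 2-fold, the transporter Slco1a4 and the tight junction gene Cldn5. Every LPS array lay above every saline array for 259 of the 284, and below for 57 of the 75. Over all genes tested, 1.59% were separated in the first way and 0.622% in the second, called or not. The 7035 probe sets with several gene symbols or none were fitted separately with the rest, and 64 of them (0.91%) were called, 63 higher and 1 lower.

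**Figure D1:**
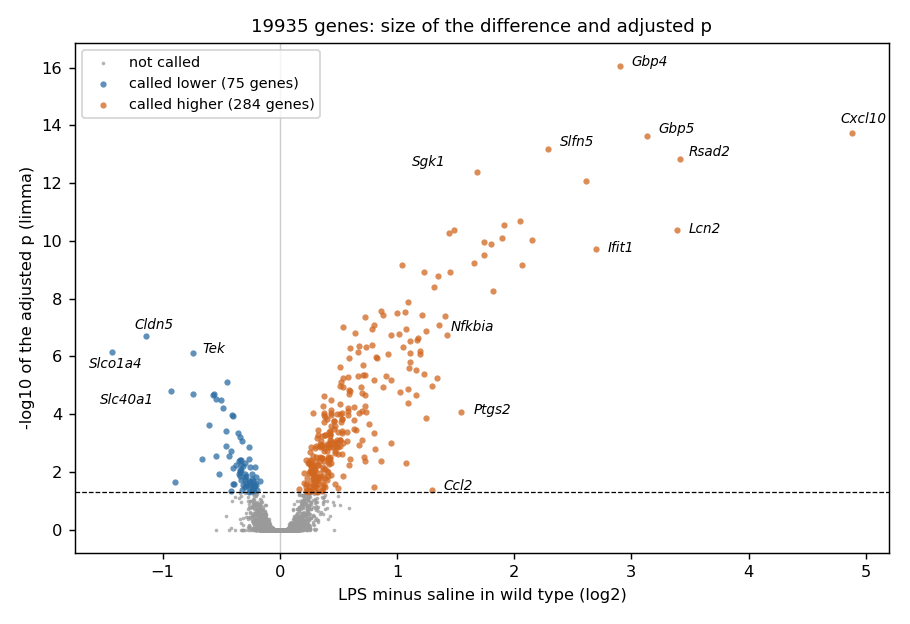
Each point is 1 of 19935 genes, with the LPS minus saline difference in wild type (log2) on the horizontal axis and -log10 of limma's adjusted p on the vertical axis. Orange points are the 284 genes called higher, blue points the 75 called lower, and the dashed line marks an adjusted p of 0.05; the orange cloud reaches 4.88 and the blue one -1.43.

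Arrays differed in where they stood among the called genes. Among the 284 higher genes, LPS replicate 6 was the lowest of the 7 LPS arrays for 98 (34.5%) and replicate 5 for 82 (28.9%). Over all genes tested these shares were 14.2% and 19.5%. LPS replicates 4 and 3 were the highest for 92 (32.4%) and 75 (26.4%), against 14.6% and 8.95% of all genes tested. The medians of these 284 genes were 0.05 and 0.06 in LPS replicates 6 and 5, and 0.23 and 0.24 in replicates 4 and 3. Among the 75 lower genes, replicate 5 was the lowest LPS array for 22 (29.3%, against 19.5% of all genes tested). In these 75 genes replicates 5 and 6 had the lowest medians, -0.17 and -0.16, against -0.14 to -0.12 in the other LPS arrays. By median these 2 arrays thus stood lowest among the LPS arrays in both sets of genes. Replicate 6 was the lowest LPS array for 11 of the 75 genes (14.7%), close to its 14.2% of all genes tested. Replicates 4 and 7 were the lowest for 13 (17.3%) and 12 (16%), against 13.6% and 18.3% of all genes tested. The genes were chosen by this contrast, so the medians describe them and test nothing.

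Differences between arrays were examined before the gene groups. The labels number the arrays but do not say what the numbers stand for. Array numbers in the labels split the wild-type arrays into 5 LPS and 3 saline arrays numbered 1 to 11, and 2 LPS and 1 saline array numbered 12 to 22. Across all 22 arrays 4286 of 19935 genes differed between the low-numbered and the high-numbered set. Of the 359 called genes, 44 were among them. Within arrays 1 to 11 alone, 274 genes were called higher and 76 lower; within arrays 12 to 22, where 1 saline array is the whole wild-type control, 41 and 4 were. With the set as a term in the fit the counts were 335 and 97. Ttr, a choroid plexus product, read 4.62 in saline replicate 1, 2.80 in LPS replicate 5 and 2.43 in LPS replicate 2, and between -0.59 and 0.48 in the other wild-type arrays. Without saline replicate 1 and LPS replicate 5, 234 genes were called higher and 50 lower. The count of lower genes was 46 without saline replicate 2 and 47 without saline replicate 3. The part of these differences in the gene results was not tested beyond these counts.

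**Figure D2:**
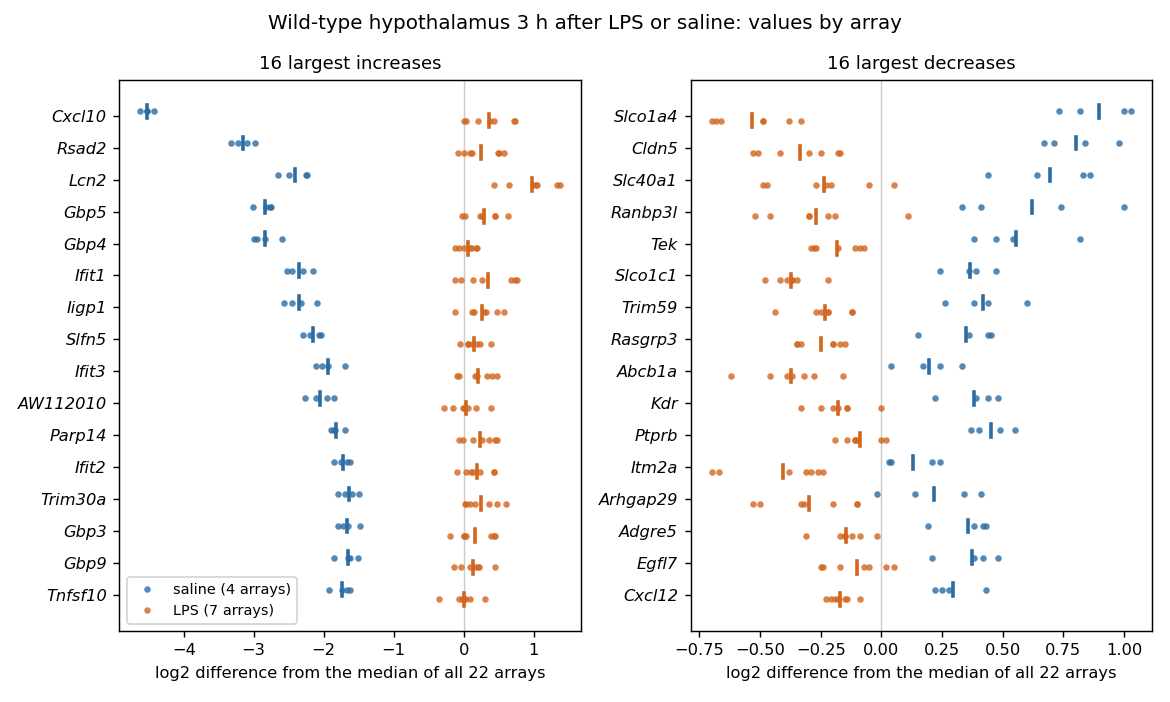
Each dot is 1 array and each short bar a group mean, for the 16 largest increases (left) and the 16 largest decreases (right), with values as log2 differences from the median of all 22 arrays. The 4 saline arrays (blue) and 7 LPS arrays (orange) do not overlap for any of these 32 genes; Cxcl10 lies at -4.62 to -4.43 after saline and at 0.01 to 0.73 after LPS.

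Interferon-stimulated genes were among the largest increases, and no interferon or interferon receptor was called. Of 11 measured interferon-inducible GTPases, which attack the vacuoles of intracellular pathogens, 10 rose, with a median difference of 1.74. Of 30 antiviral effectors 23 rose (median 0.73), and of 18 interferon signalling genes 11 rose (median 0.38). No member of these 3 lists fell. By contrast 0 of 11 interferon ligands and receptors were called, with a median of 0.00; Ifnb1, the main type I interferon of this pathway, differed by 0.00 (SE 0.06). All of these lists may share genes with others, and array values cannot tell a gene that did not differ from one whose probes read only background.

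Gbp4, a guanylate-binding GTPase, had the smallest adjusted p of all genes. It read -2.84, -2.99, -2.60 and -2.95 in the saline arrays, and in the LPS arrays from -0.12 to 0.19 with a median of 0.10. The LPS arrays thus spanned 0.31 and lay far above saline, by 7.46-fold (log2 2.90, SE 0.09, adjusted p = 8.71e-17, limma). Its relatives followed in graded steps. Gbp5 was 8.77-fold higher, Gbp3 3.54-fold, Gbp9 3.47-fold, Gbp7 2.71-fold, Gbp11 2.15-fold and Gbp8 1.42-fold, while Gbp2b was not called (0.16, SE 0.06, adjusted p = 0.518). The immunity-related GTPases Iigp1, Irgm1 (3.33-fold) and Gm4951 (2.45-fold) rose as well. Iigp1 rose the most of these, by 2.54 to 2.70 (log2) over the 11 fits that each left out 1 array. Its closest LPS and saline arrays lay 1.96 apart.

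Among antiviral effectors the largest increase was in Rsad2, the viperin gene, whose enzyme makes a chain-terminating nucleotide. Rsad2 read -3.10, -3.32, -2.98 and -3.23 after saline and from -0.08 to 0.58, median 0.12, after LPS, with no overlap. Cmpk2, a nucleotide kinase gene that lies next to Rsad2 in the genome, was 2.82-fold higher (log2 1.49, SE 0.09). Its 4 saline values, -1.33, -1.34, -1.37 and -1.35, were nearly equal. The RNA-binding Ifit genes rose in 4 of 5 measured: Ifit1 6.49-fold, Ifit3 4.43-fold, Ifit2 3.77-fold and Ifit3b 2.29-fold. Other effectors rose by less: the dynamin-like Mx2 3.16-fold and Mx1 1.74-fold, the ubiquitin ligase Herc6 2.34-fold, the entry inhibitor Ifitm3 2.37-fold, the exonuclease Isg20 1.66-fold, the nucleotide hydrolase Samhd1 1.78-fold and the kinase Eif2ak2 1.67-fold. Oas2, of the oligoadenylate synthetase family, was not called (0.14, SE 0.07, adjusted p = 0.875), although Oasl1 (0.73, SE 0.06), Oasl2 (0.95, SE 0.12), Oas1a (0.38, SE 0.08) and Oas1b (0.39, SE 0.07) were.

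The genes that transmit and sense the signal rose more modestly. Usp18, which removes ISG15 from proteins and restrains the interferon receptor, was 2.54-fold higher, and the transcription factor Irf7 1.88-fold. Stat2, Irf9 and Irf1 rose by 0.43 (SE 0.07), 0.33 (SE 0.07) and 0.34 (SE 0.08). The Irf1 value averages 2 probe sets that disagreed, at 0.68 and near 0, and its call was lost without saline replicate 1 or 2 (adjusted p up to 0.0905). Of 10 nucleic acid sensors 6 rose, led by the RNA sensors Ifih1 (1.18, SE 0.12) and Ddx58 (1.0, SE 0.09). The call of the DNA-pathway adaptor Sting1 (0.29, SE 0.07) was lost in 9 of 11 fits that each left out 1 array, with adjusted p up to 0.235. Antigen presentation moved in part: of 15 class I genes 4 rose, the class I gene H2-Q4 2.16-fold, the peptide pumps Tap1 1.52-fold and Tap2 1.20-fold, and the class I regulator Nlrc5 1.28-fold. Of 11 class II and co-stimulation genes 2 rose, the T-cell inhibitor Cd274 (PD-L1) 2.74-fold and Cd40 1.33-fold, the latter not called without saline replicate 1 (adjusted p = 0.0595).

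**Figure D3:**
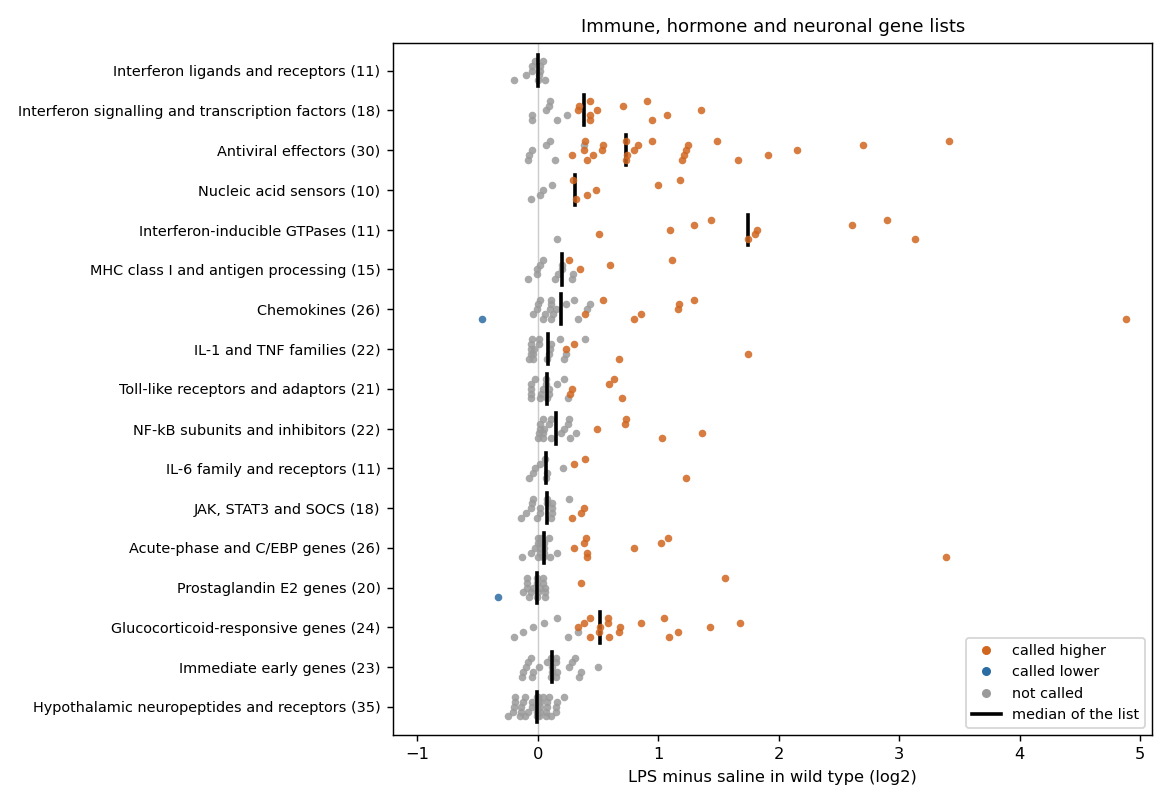
Each dot is 1 gene of a list (number measured in brackets), placed at its LPS minus saline difference in wild type (log2); orange was called higher, blue called lower, grey not called, and the black bar is the median of the list. Interferon-inducible GTPases lie furthest right with a median of 1.74, while interferon ligands, immediate early genes and neuropeptides hold no called gene.

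Chemokines for monocytes and T cells were among the increases, and Cxcl12 was the 1 that fell. Of 26 chemokines 8 rose and 1 fell (median 0.19). Cxcl10, a ligand of the T-cell receptor CXCR3, was the largest increase of the whole table. It read -4.62, -4.43, -4.53 and -4.52 in the saline arrays and from 0.01 to 0.73 in the LPS arrays, with a median of 0.37. The closest pair of arrays from the 2 groups lay 4.43 apart, and the fitted difference was 4.88 (SE 0.19, 29.5-fold, adjusted p = 1.89e-14). Cxcl11, a ligand of the same receptor, was 2.23-fold higher, and Cxcl9, the remaining one, was not called (0.41, SE 0.15, adjusted p = 0.413).

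Ligands of CCR2, the receptor of inflammatory monocytes, behaved unevenly over arrays. Ccl12 rose 2.25-fold (log2 1.17, SE 0.12, adjusted p = 2.7e-07). Ccl2 read -0.43, -0.56, -0.53 and -0.54 after saline but from -0.30 to 1.64, median 0.76, after LPS. Its LPS arrays thus spread over 1.94, against 0.31 for Gbp4, and the difference of 1.30 (SE 0.33, adjusted p = 0.042) lost its call in 9 of 11 fits that left out 1 array (adjusted p up to 0.125). Ccl19 (0.80, SE 0.20) lost its call in 9 as well (adjusted p up to 0.143), Ccl5 without saline replicate 1 or 3 (adjusted p up to 0.0703) and Ccl9 without saline replicate 1 or 2 (adjusted p up to 0.118). Ccl3 rose 1.82-fold (adjusted p = 0.00411), and was not called after quantile normalization (adjusted p = 0.0744). Cxcl12, which holds leukocytes beside brain vessels, fell by 0.46 (SE 0.08, adjusted p = 0.000392); it read 0.22, 0.43, 0.25 and 0.28 after saline and -0.23 to -0.09 after LPS. Of 14 chemokine receptors none rose, and 1, the microglial Cx3cr1, fell.

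The cytokine transcripts best known from LPS did not pass the test in this tissue at this time. Il1b differed by 0.39 (SE 0.13, adjusted p = 0.189), Tnf by 0.09 (SE 0.05, adjusted p = 0.9997) and Il6 by 0.21 (SE 0.08, adjusted p = 0.457). Il1b read from -0.24 to -0.09 after saline and from -0.09 to 0.69 after LPS, and the highest LPS array was replicate 4. Of 22 genes of the IL-1 and TNF families 4 rose: the death ligand Tnfsf10 (TRAIL) 3.34-fold, the death receptor Fas 1.59-fold, the TNF receptor Tnfrsf1b 1.23-fold and Il1a 1.17-fold. The Tnfrsf1b call was lost without saline replicate 1 (adjusted p = 0.0643) and the Il1a call in 8 of 11 fits without 1 array (adjusted p up to 0.221). Of 26 other cytokines and receptors, 4 rose and 1 fell. They were the receptors Il17ra and Il4ra (0.39 and 0.38, SE 0.06 each), the growth factor Csf1, Il15, and, lower, the shared interleukin-10 receptor chain Il10rb (-0.33, SE 0.08). Leaving out 1 array ended the calls of Csf1 and Il10rb in 2 fits each and of Il15 in 7 (adjusted p up to 0.0722, 0.126 and 0.152).

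Genes near the LPS receptor and of NF-kB feedback were among the increases. Of 21 Toll-like receptors and adaptors 5 rose, the LPS co-receptor Cd14 1.62-fold, the adaptor Myd88 1.55-fold, the lipoprotein receptor Tlr2 1.51-fold, the kinase Irak2 1.22-fold and the RNA receptor Tlr7 1.21-fold. The Tlr2 call was lost without saline replicate 3 (adjusted p = 0.0554, limma) and the Tlr7 call without saline replicate 4 (adjusted p = 0.0566). Tlr4 itself differed by 0.04 (SE 0.05). Of 22 NF-kB genes 5 rose (median 0.15). Nfkbia, the inhibitor IkB-alpha and a direct NF-kB target, read -1.24, -0.97, -0.93 and -1.27 after saline and -0.08 to 0.51, median 0.32, after LPS. That is 2.57-fold with no overlap (SE 0.13, adjusted p = 8.18e-08). Birc3 (2.04-fold), Map3k8 (1.66-fold), Tnfaip3 (1.64-fold) and Nfkb2 (1.40-fold), all NF-kB pathway members that NF-kB itself induces, rose with it. The subunit gene Rel was not called (0.32, SE 0.10, adjusted p = 0.179).

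The IL-6 family was represented by its receptors. Of 11 members 3 rose: Osmr, the oncostatin M receptor, the leukaemia inhibitory factor receptor Lifr (1.31-fold) and the IL-6 receptor Il6ra (1.23-fold), whose call was lost without saline replicate 1 (adjusted p = 0.0751). Osmr read -1.05, -0.64, -0.70 and -0.60 after saline and 0.13 to 0.96, median 0.47, after LPS, a 2.35-fold increase (log2 1.23, SE 0.15, adjusted p = 4.2e-06). The shared signal chain Il6st differed by 0.06 (SE 0.06). Downstream, 3 of 18 JAK, STAT3 and SOCS genes rose, the kinase Pim1 (0.38, SE 0.07), Socs2 (0.36, SE 0.07) and Stat3 (0.28, SE 0.06), the last not called without saline replicate 2 (adjusted p = 0.0661). Socs3, the feedback inhibitor of this receptor family, was not called (0.26, SE 0.08, adjusted p = 0.135), although its LPS arrays (0.11 to 0.30) lay above its saline arrays (-0.14 to 0.07).

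Acute-phase genes followed, with 9 of 26 higher and none lower. Lcn2, which binds the iron carriers of bacteria, read -2.25, -2.49, -2.24 and -2.66 after saline. After LPS it ran from 0.44 to 1.38 with a median of 1.03, and the increase was 10.5-fold (log2 3.39, SE 0.20, adjusted p = 4.09e-11). The crosslinking enzyme Tgm2 rose 2.03-fold, the copper carrier Cp 2.11-fold, the metalloreductase Steap4 1.74-fold, the transcription factors Cebpd and Cebpb 1.33-fold and 1.30-fold, the protease inhibitor Serpina3n 1.32-fold, Saa3 1.33-fold and A2m 1.23-fold. The calls of Serpina3n, Saa3 and A2m were lost in 2, 2 and 5 of the 11 fits without 1 array (adjusted p up to 0.121, 0.0905 and 0.185).

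Of 20 genes of the prostaglandin E2 pathway 2 rose and 1 fell. Ptgs2, which encodes cyclooxygenase-2, read -1.17, -0.95, -1.09 and -0.94 after saline and 0.01 to 1.20, median 0.42, after LPS. Every LPS array lay above every saline array, by 2.93-fold on average (log2 1.55, SE 0.22, adjusted p = 8.15e-05). The terminal synthase Ptges differed by 0.36 (SE 0.09, adjusted p = 0.0467), with overlapping groups, and lost its call in 9 of 11 fits without 1 array (adjusted p up to 0.269). Hpgd, which breaks prostaglandin E2 down, fell by 0.33 (SE 0.07, adjusted p = 0.00601). Its saline values were 0.30, 0.10, 0.28 and 0.27 and its LPS values lay at or below 0.00. Without saline replicate 1 and LPS replicate 5, the Hpgd call was lost (adjusted p = 0.0789). No prostaglandin E2 receptor was called; Ptger1 differed by -0.09 (SE 0.07).

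Glucocorticoid-responsive genes rose as a broad group, 17 of 24 higher and none lower, with a median of 0.52. Sgk1, a kinase that the hormone receptor induces directly, read -1.41, -1.52, -1.54 and -1.70 after saline and -0.10 to 0.40, median 0.14, after LPS (3.21-fold, log2 1.68, SE 0.08, adjusted p = 3.97e-13). The transcription factor Zbtb16 rose 2.69-fold and the receptor chaperone Fkbp5 2.07-fold. Errfi1 (2.13-fold), the metallothioneins Mt2 (2.23-fold) and Mt1 (1.81-fold), Tsc22d3, the leucine zipper gene GILZ (1.51-fold), Klf9 (1.42-fold), Klf15 (1.35-fold) and Ddit4 (1.49-fold) rose too. Several of these genes also answer other signals; metallothioneins respond to zinc and cytokines, and Errfi1 to growth factors. The receptor gene Nr3c1 was not called (-0.20, SE 0.05, adjusted p = 0.0691), nor was Per1 (0.33, SE 0.11, adjusted p = 0.225). Angptl4 lost its call in 6 of 11 fits without 1 array (adjusted p up to 0.242).

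Genes of the brain endothelium held the largest decreases. Of 16 endothelial markers 10 fell and none rose (median -0.35), against 0 of 12 pericyte and smooth muscle markers (median -0.04) and 0 of 10 perivascular fibroblast markers (median -0.15). The decrease did not cover all endothelial genes. Cdh5 differed by 0.31 (SE 0.10), Slc2a1 by 0.19 (SE 0.08), Erg by 0.13 and Esam by 0.04, none of them called; Erg and Esam are named after their values were seen. In RNA of a whole tissue, fewer cells of a type and less RNA per cell cannot be told apart. The medians of the 16 markers ran from 0.12 to 0.27 over saline arrays and from -0.15 to 0.01 over LPS arrays. Medians of the pericyte list ran from -0.11 to 0.20 and from -0.06 to 0.13. Those of the fibroblast list ran from -0.04 to 0.40 and from -0.27 to 0.28. These 2 lists thus varied more between saline arrays, and 1 of the 10 fibroblast markers had a positive difference. Their lack of calls therefore does not show that they stayed level.

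Of 28 genes of transport across the blood-brain barrier 10 fell and 1 rose (median -0.18). Slco1a4, an organic anion carrier, read 0.82, 0.73, 1.03 and 1.0 after saline and -0.70 to -0.33, median -0.49, after LPS. It fell by 1.43 (SE 0.15, 2.69-fold lower, adjusted p = 7.01e-07). Slco1c1, which carries thyroxine, fell by 0.74 (SE 0.10), the iron exporter Slc40a1 by 0.93 (SE 0.12), the drug pump Abcb1a (P-glycoprotein) by 0.57 (SE 0.07) and the taurine carrier Slc6a6 by 0.40 (SE 0.06). The amino acid carrier Slc7a5 (-0.29, SE 0.07), the monocarboxylate carriers Slc16a1 (-0.40, SE 0.10) and Slc16a4 (-0.21, SE 0.05), Slco2b1 (-0.26, SE 0.06) and Slc35f2 (-0.30, SE 0.07) fell as well. Leaving out 1 array ended the calls of these 5 in 5, 5, 5, 6 and 1 of 11 fits, with adjusted p up to 0.216. Mfsd2a, a lipid carrier that limits vesicle transport across the endothelium, went the other way. It read -0.41, -0.52, -0.57 and -0.54 after saline and -0.05 to 0.32 after LPS, an increase of 0.60 (SE 0.08, adjusted p = 1.64e-05).

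A few junction and receptor genes fell. Cldn5, the main sealing claudin of the brain vessel, read 0.67, 0.71, 0.84 and 0.98 after saline and -0.53 to -0.17, median -0.30, after LPS. The groups were apart by a wide margin, and Cldn5 fell by 1.14 (SE 0.11, 2.20-fold lower, adjusted p = 2.05e-07). Occludin, Ocln, fell by 0.36 (SE 0.06) and caveolin-1, Cav1, by 0.33 (SE 0.07), a call lost without saline replicate 4 (adjusted p = 0.0577), while the scaffold gene Tjp1 was not called (-0.19, SE 0.06, adjusted p = 0.20). In all, 3 of the 21 genes on the junction list fell and 1 rose. The 1 that rose was Mfsd2a, the lipid carrier already counted among the transporters and not a junction protein. Of 29 endothelial receptors and regulators 8 fell and 3 rose. The angiopoietin receptor Tek fell by 0.74 (SE 0.08), the VEGF receptor Kdr by 0.56 (SE 0.07), the phosphatase Ptprb by 0.54 (SE 0.07) and the secreted Egfl7 by 0.48 (SE 0.07). Rasip1 (0.53, SE 0.08), Apold1 (0.39, SE 0.08) and Robo4 (0.29, SE 0.07), genes of endothelial shape and permeability, were the 3 that rose; the Robo4 call was lost without saline replicate 1 or 4 (adjusted p up to 0.164).

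Wnt signalling maintains the barrier, and 3 of its 20 genes fell: the receptor Fzd6 (-0.45, SE 0.05, adjusted p = 7.51e-06), the target and inhibitor Apcdd1 (-0.41, SE 0.06) and the ligand Wnt7a (-0.23, SE 0.06). The Wnt7a call was lost in 9 of 11 fits without 1 array (adjusted p up to 0.227). The target gene Axin2 was not called (-0.13, SE 0.07). Of 16 Notch genes the sugar transferase Lfng rose (0.28, SE 0.06) and Hes5 fell (-0.29, SE 0.07); 2 and 9 of the 11 fits without 1 array ended these calls, with adjusted p up to 0.0933 and 0.136.

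Of 23 genes of endothelial adhesion and activation, which include those that capture leukocytes, 5 rose and 3 fell. Icam1 read -1.06, -0.86, -0.80 and -1.0 after saline and -0.19 to 0.63, median 0.35, after LPS (2.30-fold, adjusted p = 8.57e-07). Vcam1 rose 2.16-fold, E-selectin, Sele, 1.41-fold and Ch25h, which makes 25-hydroxycholesterol, 2.53-fold. Pecam1 (-0.22, SE 0.05), Nos3 (-0.25, SE 0.06) and Vwf (-0.23, SE 0.05) fell, calls that were lost in 8, 4 and 4 of the 11 fits without 1 array (adjusted p up to 0.199). Tissue factor, F3, which starts coagulation, rose 1.49-fold, and the urokinase receptor Plaur 1.38-fold; the latter lost its call in 7 of 11 fits (adjusted p up to 0.0983). The matrix proteases Adamts9 and Adamts1 rose 2.11-fold and 2.12-fold and the proteoglycan Sdc4 1.27-fold.

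**Figure D4:**
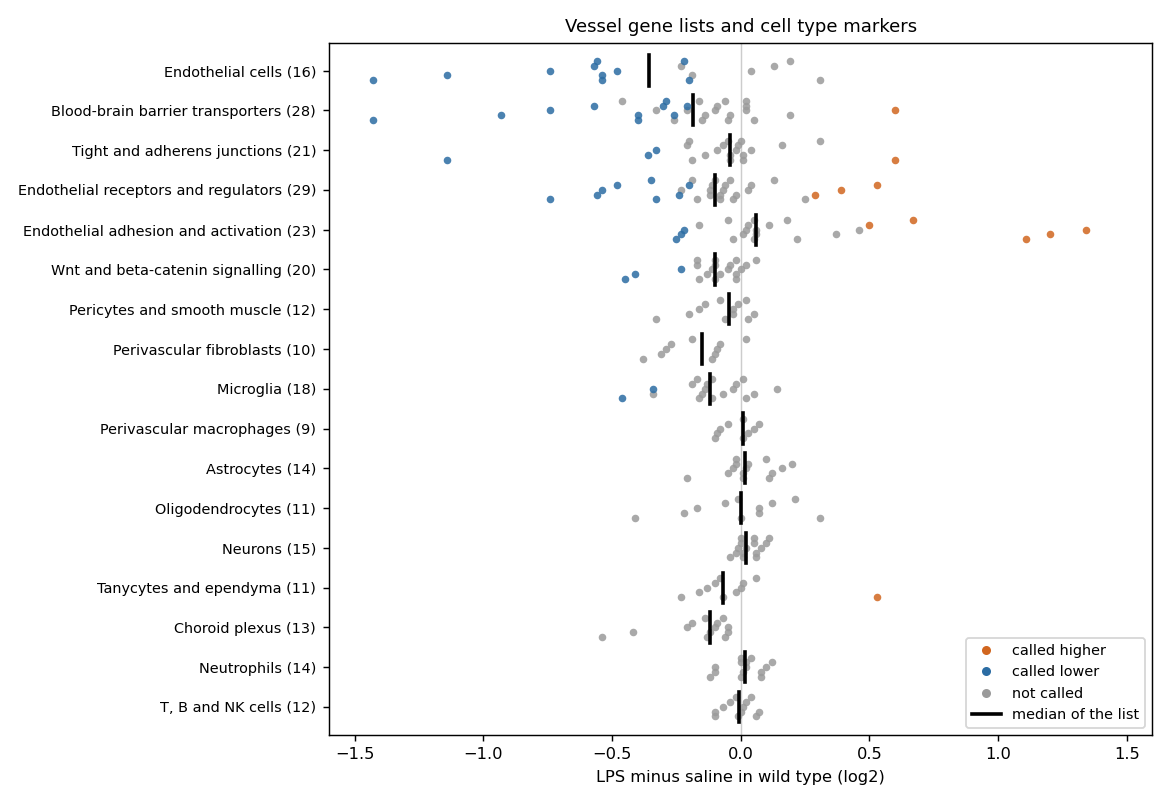
Each dot is 1 gene of a vessel list or cell type marker list (number measured in brackets) at its LPS minus saline difference in wild type (log2), orange called higher, blue called lower and grey not called; the black bar is the list's median. Endothelial markers have a median of -0.35, with 4 of 16 to the right of 0, and neuron, neutrophil and lymphocyte markers lie around 0 with no called gene.

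Genes on the microglial lists were called in both directions. Of 18 microglia markers 2 fell and none rose (median -0.12). Cx3cr1, the fractalkine receptor, read -0.04, 0.21, 0.33 and 0.25 after saline and -0.41 to -0.19, median -0.26, after LPS. It fell by 0.46 (SE 0.08, 1.37-fold lower, adjusted p = 0.00123), and Sall1, a transcription factor that maintains microglial identity, by 0.34 (SE 0.06). P2ry13 (-0.34, SE 0.09, adjusted p = 0.0524) and Csf1r (-0.17, SE 0.06) were not called. Of 24 microglial activation genes 3 rose, Slfn2 2.13-fold, Ms4a6d 1.42-fold and the Fc receptor Fcgr3 1.30-fold. RNA of a whole tissue does not show which cells made these transcripts, and Slfn2 was 1 of 5 Slfn genes that rose. The complement receptor C5ar1 was 1.32-fold higher, the only called member of 17 complement genes.

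Astrocyte, neuron and blood cell markers gave few calls. None of 14 astrocyte, 11 oligodendrocyte, 15 neuron, 9 perivascular macrophage, 14 neutrophil and 12 lymphocyte markers was called, and the medians of these lists lay within 0.02 of 0. Gfap differed by 0.16 (SE 0.10). Of 28 reactive astrocyte genes 8 rose, among them Cxcl10, Lcn2, Osmr and Serpina3n, all of which also sit in other lists and are made by other cells too. Vcan was the single called gene among 8 monocyte and 10 oligodendrocyte precursor markers (0.22, SE 0.06), and it lost the call in 8 of 11 fits without 1 array (adjusted p up to 0.253). The neutrophil marker S100a8 differed by 0.00 (SE 0.04).

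Neuronal lists likewise held no called gene in the fit as designed. These were 23 immediate early genes (median 0.12), 35 neuropeptides and receptors (median -0.01), 21 preoptic thermoregulatory genes (median -0.02) and 22 GABA and glutamate receptors (median -0.03). Fos, the usual activity marker, read -0.19 to -0.02 after saline and 0.02 to 0.56 after LPS (0.36, SE 0.10, adjusted p = 0.0755). The smallest adjusted p of the immediate early genes was 0.0504, for Btg2 (0.34, SE 0.09). With the array-number set as a term 3 immediate early genes were called higher. Of the clock genes Ciart rose (0.30, SE 0.07) and Dbp fell (-0.22, SE 0.06), and 4 and 7 of the 11 fits without 1 array ended these calls (adjusted p up to 0.189 and 0.201).

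Metabolic genes were called at a few steps. Of 11 polyamine, purine and pyrimidine enzymes 4 rose: besides Cmpk2, the purine breakdown enzymes Xdh, Pnp and Ada. Xdh, which makes uric acid, read -1.39, -1.11, -1.14 and -1.02 after saline and -0.01 to 0.57, median 0.10, after LPS (2.50-fold, log2 1.32, SE 0.10, adjusted p = 3.84e-09). Pnp rose 1.63-fold and Ada 1.32-fold, so transcripts of 3 enzymes on the route from adenosine to uric acid were each higher. Enzyme activity and metabolites were not measured. Of 19 glycolysis and hypoxia genes 3 rose, the glycolysis activator Pfkfb3 1.89-fold, Hif3a 1.40-fold and the pyruvate dehydrogenase kinase Pdk4 1.49-fold. Dio2, the tanycyte and astrocyte enzyme that activates thyroxine, read -0.47, -0.27, -0.29 and -0.48 after saline and up to 0.28 after LPS with a median of 0.21 (1.44-fold, adjusted p = 0.000151), while its carrier Slco1c1 fell.

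Single steps of other pathways also passed. The cholesterol exporter Abca1 rose 1.20-fold, the antioxidant transcription factor Nfe2l2 1.27-fold and the stress transcription factor Atf3 1.45-fold. Inflammatory caspase Casp4, which binds intracellular LPS, rose 2.16-fold and the necroptosis effector Mlkl 1.36-fold, among 5 of 20 genes of programmed death. Gadd45g, a growth arrest gene, rose 2.06-fold (log2 1.04, SE 0.07, adjusted p = 7.04e-10). No gene of 16 in the heat-shock and cold-inducible list was called, nor any of 15 MAP kinase phosphatases and sprouty genes.

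Many called genes belonged to none of the lists, 132 of the higher and 39 of the lower. Slfn5, a schlafen gene induced by interferon, was the strongest of them by p: it read -2.04, -2.20, -2.29 and -2.07 after saline and -0.05 to 0.39, median 0.12, after LPS (4.90-fold, adjusted p = 6.5e-14). Parp14 rose 4.14-fold, AW112010 4.21-fold, Trim30a 3.72-fold and the ubiquitin ligase Rnf213 2.38-fold. Txnip, an inhibitor of thioredoxin, rose 1.85-fold, the membrane protein gene Tmem252 2.66-fold, the lectin Lgals9 1.74-fold and the peptidoglycan-binding Pglyrp1 1.56-fold. Among the decreases, Adgre5 fell by 0.50 (SE 0.07), the Ras activator Rasgrp3 by 0.60 (SE 0.09), the BMP target Id1 by 0.26 (SE 0.05), the stem cell factor Sox2 by 0.43 (SE 0.08) and the ephrin receptor Ephb4 by 0.26 (SE 0.05).

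Gene families, chosen after their values were seen, varied in how many members were called. Over all genes tested, 1.42% were called higher and 0.376% lower. Of 10 Slfn genes 5 rose, of 11 Parp genes 4, and of 59 Trim genes 6 rose and 2 fell. Of 364 Slc genes 1 rose and 6 fell, and of 15 Slco genes 3 fell and none rose.

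**Figure D5:**
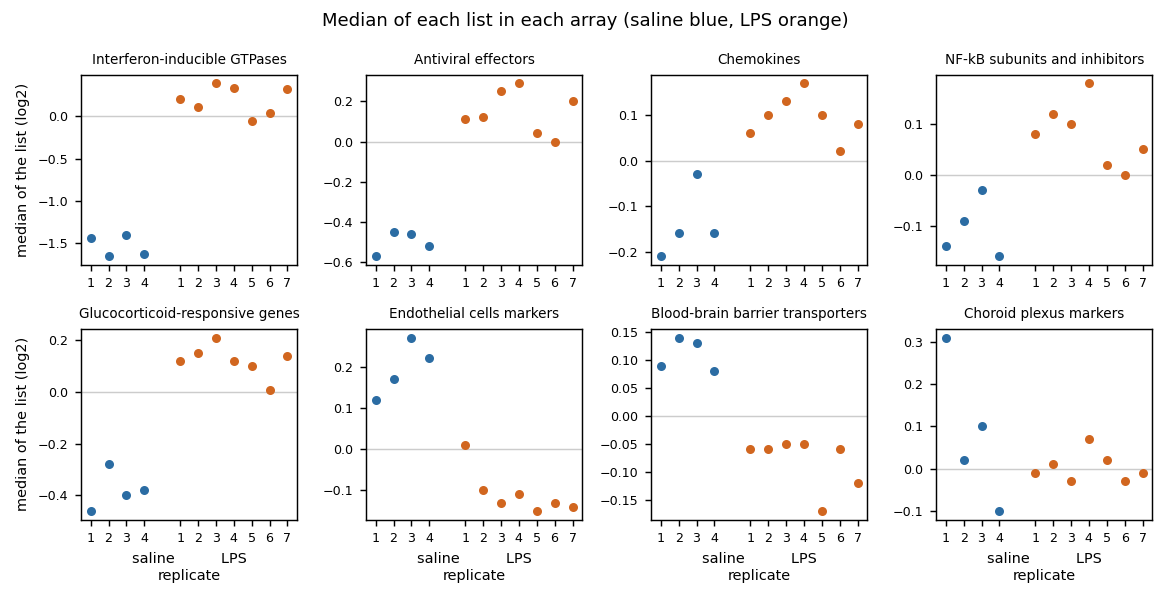
Each dot is the median of a gene list (log2 difference from the median of all 22 arrays) in 1 array, with 4 saline replicates in blue and 7 LPS replicates in orange. The medians of the interferon-inducible GTPases lie between -1.65 and -1.40 after saline and between -0.06 and 0.39 after LPS, and the choroid plexus markers stand highest in saline replicate 1, at 0.31.

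The wild-type response was set beside that of the KO littermates, which has its own saline arrays. All 284 genes higher in WT had a positive difference in the arrays labelled KO, and 194 of them were called there; of the 75 lower, 73 had a negative difference and 34 were called. In these arrays Il6 itself rose with LPS by 0.36 (adjusted p = 0.0193), and the altered stretch of Il6 is not given in the labels. Over all 19935 genes tested, 216 were called higher and 51 lower with LPS in the KO arrays. The share of all genes with a positive difference in KO is not given here. Both contrasts took each gene's spread from the same fit over WT and KO arrays, so their calls are not independent. The 284 and the 75 were chosen by the WT contrast, so their counts in KO do not compare the genotypes. The test of the difference between the 2 LPS effects called 0 of 19935 genes (0%) with limma. An unadjusted p under 0.05 was found for 327 of the 19935, for 35 of the 284 and for 10 of the 75. The 284 and the 75 were chosen with WT arrays that this test also uses, so their counts test nothing. The smallest unadjusted p of a gene called in WT was 0.00101, for Lcn2, which rose by 3.39 (SE 0.20) in WT and by 2.31 (SE 0.20) in KO. The difference of -1.08 (SE 0.29) had an adjusted p of 1.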

How the data were processed

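Per the submitters' processing notes, the arrays were summarised with RMA, and the authors deposited the result as log2 values, 1 for each of 28815 probe sets in each of 22 arrays. RMA's version and the genome build are not given in the sources used here. Every row had been centred: the medians of the probe sets were 0, with deviations of at most 7.02e-07. No source names the logarithm's base. It was taken as 2, because 99.9% of 619799 small values were whole steps (tolerance 0.03) of single-precision numbers in the range of log2 RMA values.

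Arrays were grouped by their treatment and genotype labels. Of the probe sets, 21780 had 1 gene symbol in the platform annotation, and 21689 of these were matched to RefSeq (GRCm38.p6) by gene ID. They were averaged per gene, giving 19935 genes, 998 of them with more than 1 probe set. The 7035 probe sets with several symbols or none were left out. limma 3.58.1 in R 4.3.3 fitted 1 mean per group over all 22 arrays with empirical Bayes moderation. Errors are standard errors of that fit. Precision is limited by the number of arrays, which have no depth of their own.

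Genes were named by a rule: the 40 largest increases and 25 largest decreases, called list members with up to 3 uncalled ones, up to 10 called genes per direction outside all lists, and 16 fixed genes. For length, not every gene the rule allows is named. The contrast, its members and the lists were chosen with earlier results of these data known. In data simulated for this contrast with 19935 genes, 97 of 100 planted differences of 0.5 and 100 of 100 of size 1 were called, and 10 of 207 calls were unplanted. The simulated noise was normal and independent between genes, without the array and array-number differences of the real data. These rates therefore hold for that simpler setting only. Alternatives covered the arrays in the fit, the array number as a term, scaling, probe set choice, moderation, weights, a filter on spread and each array left out. RefSeq promoters were searched on both strands.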

Additional observations from a re-analysis of the deposited data

Results flagged for a closer look

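In each group of 4 or 7 wild-type arrays, the gap between an extreme array and its nearest neighbour was compared with the range of the group (Dixon's test at 95%). Of 414 such groups, 2 for each of 207 named genes, 11 stood out (2.66%), and chance alone gives about 1 in 20. Ttr at 4.62 in saline replicate 1, against 0.48 in the next array, was the widest gap of the 11; the choroid plexus markers Kcnj13 and Kl, 2 of 13 on that list, read 0.97 and 0.86 in the same array, and both are named after their values were seen. Saline replicate 1 also stood apart at -0.25 for Gbp2b and at -0.10 for Plaur. Saline replicate 2 stood apart at 0.10 for Hpgd, whose other saline values were 0.27 or more, and at -0.09 for Map3k8. Saline replicate 4 did so at -0.42 for Mx1, at -0.42 for Stat2 and at -0.89 for Vcam1. Of the LPS arrays, replicate 5 stood apart at 0.24 for Hes5, replicate 7 at 0.04 for Nr3c1 and replicate 3 at 0.57 for Xdh. Hpgd, Map3k8, Mx1, Stat2, Vcam1 and Xdh kept their calls in all 11 fits that left out 1 wild-type array.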

How the results depend on the processing

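The counts of 284 higher and 75 lower genes stayed within 1.5 times in 22 and 20 of the 23 alternatives.

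With arrays 12 to 22 only, 41 genes were called higher and 4 lower (91.1% higher among called genes, against 79.1%), with 1 saline array in wild type. Leaving out 1 array gave 233 to 299 higher and 46 to 72 lower genes, and the lower count was 46 without saline replicate 2 and 47 without saline replicate 3. The difference between genotypes called 0 genes in every alternative that could be fitted. Among the 284, 39 were called in all 23 alternatives and 210 in the 21 that kept both array-number sets; among the 75, 2 and 30. Of the 359 called genes, 1 changed sign, with arrays 12 to 22 only, and it is not among the 207 named genes. Over those genes and alternatives, 391 values lost the call and 42 gained one, and 23 values of uncalled genes changed sign or lay at 0 to 2 decimals on one side. No paired analysis was possible because replicates carry only numbers given in accession order. Levels are missing from the deposited values, so a dim-probe filter was not run.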

Other observations

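Of 22 genes of iron and copper handling 4 rose and 1 fell. Besides Lcn2, Steap4 and Cp, the ferroxidase Heph was called (0.16, SE 0.04, adjusted p = 0.0389), a call lost in 7 of 11 fits without 1 array (adjusted p up to 0.315), and the iron exporter Slc40a1 was the 1 that fell. Slc40a1 read 0.64, 0.86, 0.83 and 0.44 after saline and -0.49 to 0.05 after LPS. The iron uptake receptor Tfrc differed by -0.26 (SE 0.13, adjusted p = 0.78), with LPS arrays from -0.72 to 0.13.

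Of 17 genes of tryptophan, arginine and nitric oxide metabolism, Gch1, the first enzyme of tetrahydrobiopterin synthesis, rose (0.28, SE 0.07) and the endothelial synthase Nos3 fell (-0.25, SE 0.06), a call lost in 4 of 11 fits without 1 array. The Gch1 call was lost in 7 of 11 fits that left out 1 wild-type array (adjusted p up to 0.142). Acod1, which makes itaconate, was not called (0.33, SE 0.09, adjusted p = 0.0558), and Nos2 differed by -0.07 (SE 0.05). The pituitary hormone genes Gh (0.17, SE 0.64) and Prl (0.02, SE 0.50) were not called. None of 13 genes of sphingosine and lysophospholipid signalling was called.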
